A study of Mus musculus with 4 samples.

Results

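Aminoacyl-tRNA synthetases are the enzymes that join each amino acid to its tRNA. Their genes were chosen by symbol alone: the single-letter code of an amino acid followed by ars, with or without a final 1 or 2, together with Farsa, Farsb, Fars2 and Eprs. The rule took 37 of the 32285 genes in the count matrices. The 20 genes without a final 2 were taken as cytosolic and the 17 whose symbol ends in 2 as mitochondrial. Gars and Kars, which are counted with the cytosolic genes, each encode both the cytosolic and the mitochondrial enzyme.

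A synthetase activates its amino acid with ATP and transfers it to the matching tRNA, and the charged tRNA then delivers the residue to the ribosome. Cytosolic enzymes feed translation of nuclear mRNAs, whereas mitochondrial enzymes, imported from the cytosol, feed translation of the few proteins encoded in mitochondrial DNA. In cartilage, chondrocytes secrete large amounts of collagen and proteoglycan. When amino acids run short or unfolded protein accumulates, cells phosphorylate eIF2 alpha and translate the transcription factor ATF4, for which many cytosolic synthetase genes are commonly listed as targets.

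The study profiled single cells from presumptive knee joint regions dissected from hindlimbs of mouse embryos, to ask how loss of glucose transporters acts on the developing joint. There were 4 libraries, 1 per group. Both control groups lacked Cre, and they were collected on embryonic days E13.5 and E14.5. The third, titled G1KO, was Prx1Cre;Glut1f/f;Glut3f/+ at E14.5, with floxed Glut1 (Slc2a1) on both alleles and floxed Glut3 (Slc2a3) on 1 allele. The last, called DCKO, was Prx1Cre;Glut1f/f;Glut3f/f at E14.5, with both transporter genes floxed on both alleles. Prx1Cre acts in limb mesenchyme, so muscle, blood and endothelial cells of the same dissection lie outside its lineage. How many embryos were pooled is not given in the sources used here.

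Counts are UMIs, that is, molecules tagged near the 3' end of the mRNA. A molecule gives 1 tag whatever its length, so levels could be set side by side between genes without dividing by length. The E13.5 control held 12769 barcodes and 100344565 UMIs, and the E14.5 control 9707 barcodes and 84188147 UMIs. The G1KO-labelled library held 11690 barcodes and 97110697 UMIs, and the DCKO-labelled library 11602 barcodes and 91574038 UMIs. A barcode was kept when it showed 200 to 6000 genes and drew no more than 10% of its UMIs from mitochondrial genes, which left 12446, 9305, 11264 and 11305 cells in that order. Median UMIs per kept cell were 6176.5, 7279, 6757 and 6379. Pairs of libraries shared between 25 and 40 barcodes.

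Each kept cell was placed by the number of marker genes it expressed. Limb mesenchyme, defined by at least 2 of 6 markers and by no other lineage, held 10225, 8311, 9830 and 10060 cells in the E13.5 control, E14.5 control, G1KO-labelled and DCKO-labelled libraries. For each class and library the UMIs of a gene were added up and expressed for every 1000000 UMIs of that class (CPM). CPM values carry exact Poisson 95% intervals and ratios exact conditional 95% intervals, and both cover counting error only. With 1 library per group no difference has a replicate check, and a gene is called only in the sense that its ratio passed 1.5-fold, a log2 ratio of 0.58, with at least 20 UMIs in both groups together. In limb mesenchyme 3 UMIs correspond to 0.0383, 0.0412, 0.0360 and 0.0362 CPM in the 4 libraries.

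The targeted genes were read first. In limb mesenchyme, Slc2a1 stood at 51.0 CPM in the E13.5 control, 67.8 (65.9 to 69.7) in the E14.5 control, 365 (361 to 369) in the G1KO-labelled library and 435 (431 to 439.9) in the DCKO-labelled library. Slc2a1 mRNA was thus higher, not lower, in both libraries labelled as Glut1-deleted. Slc2a3 stood at 5.29, 3.46, 4.27 and 2.51 CPM in the same order, and was called lower in the DCKO-labelled than in the G1KO-labelled library, at a log2 ratio of −0.77 (−1.02 to −0.52), whereas against the E14.5 control the DCKO-labelled ratio of −0.46 (−0.73 to −0.19) was under the fold. The 3' tags may lie outside the floxed exons, whose positions are not given in the sources used here, and in that case they check nothing. If they do lie inside, the Slc2a1 tags go against both labels, so the libraries are called G1KO-labelled and DCKO-labelled. Every direction below that sets a mutant-labelled library against another library rests on those labels. As each group has a single library, no such comparison could be given without them. Directions between the controls, or between classes inside a library, do not rest on them.

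The libraries also differed in sex. Xist stood at 832 CPM in the E13.5 control, 0.206 in the E14.5 control, 1016 in the G1KO-labelled and 896 in the DCKO-labelled library, and 4 Y-linked genes summed to 45.1, 168, 0.0480 and 0.0242 CPM. The E14.5 control thus carried Y-linked mRNA and almost no Xist, whereas both mutant-labelled libraries carried the reverse, so sex and genotype cannot be told apart at E14.5.

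The tissue label was checked on markers. All 6 limb mesenchyme markers were detected in the gated mesenchyme of each library, led by Col2a1, and summed to 2892, 6060.4, 5729.7 and 5381 CPM. Skeletal muscle markers (8 of 8 detected in each library, Mylpf the most abundant) summed to 20.6, 11.2, 10.0 and 5.70 CPM there. Endothelial markers (8 of 8, led by Egfl7) summed to 29.5, 24.1, 29.2 and 23.3 CPM, and glial or neuronal markers (7 of 7, led by Sox10 in the controls and the G1KO-labelled library) to 22.5, 29.6, 35.2 and 40.3 CPM. Erythroid markers, led by Hbb-y in the E13.5 control and by Hbb-bs in the others, summed to 92.8, 80.7, 117 and 82.3 CPM. Macrophage markers summed to 2.46, 2.75, 3.48 and 4.46 CPM, with Fcer1g leading at E13.5, C1qc leading at E14.5, and Mrc1 at 0 in the E13.5 control. Epidermal markers, led by Epcam, summed to 16.8, 9.74, 9.02 and 8.36 CPM, with Cdh1 at 0 in the E14.5 control and the DCKO-labelled library. The part of these other cells' RNA in the synthetase values was not tested.

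Markers of the classes within the mesenchyme differed between libraries too. Interzone markers summed to 1149, 779, 675 and 385 CPM, fibroblast markers to 1652, 2467, 2421 and 1902 CPM, and chondrocyte markers to 3729.5, 12183, 10714 and 11266 CPM. Tendon markers summed to 115, 119, 105 and 65.4 CPM, prehypertrophic markers to 160.5, 68.0, 103 and 106 CPM, and osteogenic markers to 143, 46.2, 91.7 and 57.4 CPM. The part of class makeup in ratios over the whole mesenchyme was not tested, and ratios within classes are given below.

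Within the mesenchyme, chondrocyte-like cells were those with at least 6 of 8 chondrocyte markers. They made up 24.1% of mesenchymal cells in the E13.5 control, 62.5% in the E14.5 control, 55.5% in the G1KO-labelled and 67.7% in the DCKO-labelled library. The class is a range along a count of markers. Of its cells, 604, 344, 459 and 702 sat exactly at the minimum, and a further 956, 387, 500 and 547 mesenchymal cells were 1 marker short. The median chondrocyte-like cell carried 3 of 6 fibroblast markers in each library, and a median of 1 osteogenic marker in the E13.5 control and 0 in the others. The median fibroblast-like cell carried 1, 2, 1 and 2 of the 8 chondrocyte markers.

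All 37 synthetase genes were detected and passed the count minimum in limb mesenchyme in each comparison between libraries. In the E14.5 control the cytosolic mRNAs summed to 1208 CPM and the 16 mitochondrial ones other than Lars2 to 165 CPM. Among the 37, the most abundant were Lars2, for leucine in mitochondria, at 284 CPM (280.2 to 288), Eprs, the fused enzyme for glutamate and proline, at 280.0 (276 to 284), and Nars, for asparagine, at 124 (121 to 126). Among the least abundant were Pars2, for proline in mitochondria, at 1.40 CPM (1.14 to 1.70), and Nars2, for asparagine in mitochondria, at 3.87 (3.43 to 4.35). The intervals of Lars2 and Eprs overlapped. Cytosolic genes ranged from Wars, for tryptophan, at 15.6 CPM up to Eprs, and mitochondrial genes other than Lars2 from Pars2 up to Yars2, for tyrosine, at 26.4 CPM. The lower cytosolic and the upper mitochondrial levels therefore overlapped.

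The comparison of the DCKO-labelled library with the E14.5 control sets limb mesenchyme labelled as lacking both transporters beside limb mesenchyme without Cre. A group of cytosolic synthetase mRNAs was higher in the DCKO-labelled library, led by those for serine, glycine, alanine, methionine and tyrosine, with folds from 1.73 to 1.95. The median mitochondrial synthetase lay close to the median gene, with single genes on either side of it, among them Mars2 above and Iars2 and the scarce Pars2 below. Summed over the 20 cytosolic genes, mRNA stood at 1126 CPM in the E13.5 control, 1208 in the E14.5 control, 1397 in the G1KO-labelled and 1604 in the DCKO-labelled library. Over the 16 mitochondrial genes other than Lars2 the sums were 198, 165, 159 and 151 CPM.

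Of the 20 cytosolic genes, 5 were called higher and 0 lower, where 4.45% of the 16262 tested genes were called higher and 13.6% lower. The median log2 ratio over the cytosolic genes was 0.36, against −0.19 over all tested genes, a difference of 0.54, and 17 of 20 lay above 0. Of the 17 mitochondrial genes, 0 were called higher and 2 lower, with a median of −0.14, which lay 0.05 above the median of all genes. Scaling with TMM factors of edgeR or size factors of DESeq2 moved the median of all genes up from −0.19 to −0.01 and 0.00, raised the cytosolic count to 9 under either, and turned the mitochondrial median to 0.04 and 0.05. It also changed the balance of calls over all tested genes, from 24.6% of calls being higher to 45.9% with TMM and 47.2% with DESeq2. For that reason the synthetase medians are also given relative to the median gene.

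Sars, on chromosome 3 (chr3:108424865-108445209, minus strand, ENSMUSG00000068739), encodes the cytosolic enzyme that charges serine tRNA. Sars mRNA stood at 70.1 CPM (68.3 to 72.0) in the E13.5 control, 73.1 (71.2 to 75.1) in the E14.5 control, 125 (123 to 128) in the G1KO-labelled and 143 (140.3 to 145) in the DCKO-labelled library. Both mutant-labelled libraries lay above both controls. The DCKO-labelled to control log2 ratio was 0.97 (0.92 to 1.01). Gars (chr6:55038007-55079500, plus strand, ENSMUSG00000029777), for glycine, the most abundant residue of collagen, stood at 61.3, 75.5 (73.5 to 77.5), 117 (115 to 119) and 146 (143 to 148) CPM in the same order, with a log2 ratio of 0.95. The order of the libraries was the same as for Sars.

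Aars (chr8:111033144-111057664, plus strand, ENSMUSG00000031960), for alanine, stood at 23.6, 21.9 (20.9 to 23.0), 31.6 (30.4 to 32.8) and 39.0 (37.7 to 40.4) CPM, a DCKO-labelled to control log2 ratio of 0.83 (0.74 to 0.92). Mars (chr10:127296221-127311786, minus strand, ENSMUSG00000040354), whose enzyme charges methionine for initiation as well as elongation, stood at 22.4, 19.1 (18.1 to 20.1), 26.0 (24.9 to 27.1) and 33.4 (32.2 to 34.7) CPM, a log2 ratio of 0.81 (0.71 to 0.90). Yars (chr4:129189760-129219607, plus strand, ENSMUSG00000028811), for tyrosine, stood at 26.6, 27.8 (26.6 to 29.0), 34.8 (33.5 to 36.1) and 48.1 (46.6 to 49.6) CPM, a log2 ratio of 0.79 (0.72 to 0.87). For each of these genes the controls were the low pair and the DCKO-labelled library was the highest of the 4.

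The next 3 by size lay just under the fold. Iars, for isoleucine, stood at 33.8, 39.5, 51.6 and 58.6 CPM, a log2 ratio of 0.57 (0.50 to 0.64). Nars stood at 92.0, 124, 147 and 179 CPM, a log2 ratio of 0.53 (0.50 to 0.57), and its level in the E14.5 control lay above that in the E13.5 control. Lars, for leucine, stood at 62.5, 60.5, 71.5 and 86.8 CPM, a log2 ratio of 0.52 (0.47 to 0.57). Below these, the abundant Eprs stood at 228, 280.0, 307 and 349.9 CPM, a log2 ratio of 0.32 (0.30 to 0.35). The remaining 11 cytosolic genes ran from 0.47 for Cars, for cysteine, down to −0.25 for Dars, for aspartate. Farsa and Rars, for phenylalanine and arginine, joined Dars below 0, at −0.11 and −0.12, though all 3 lay above or within 0.1 of the median gene.

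**Figure D1:**
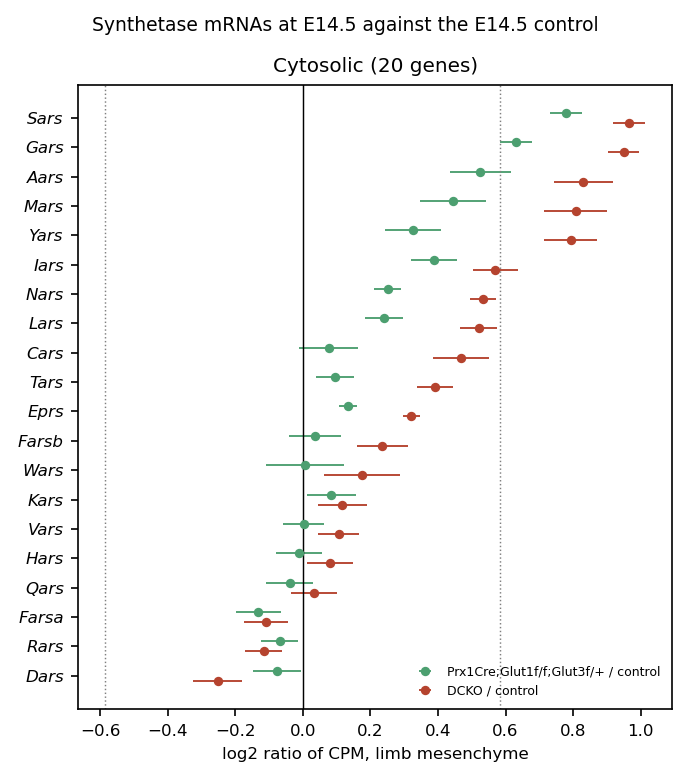
Each point is the log2 ratio of CPM in limb mesenchyme of the DCKO-labelled library (red) or the G1KO-labelled library (green) over the E14.5 control, for the 20 cytosolic genes, horizontal bars are 95% counting intervals and dotted lines mark 1.5-fold. Sars is the highest at 0.97 and Dars the lowest at −0.25 in the DCKO-labelled library, and with TMM scaling all red points would move up by the same amount.

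The cytosolic genes were also read in subgroups, and differences between subgroups were not tested. The 13 commonly listed as ATF4 targets (Aars, Cars, Eprs, Gars, Iars, Lars, Mars, Nars, Sars, Tars, Vars, Wars and Yars) included all 5 called genes, where 4.45% of all tested genes were called higher, and had a median of 0.53, with 13 of 13 above 0. The other 7 (Dars, Farsa, Farsb, Hars, Kars, Qars and Rars) had 0 called and a median of 0.03, which lay 0.22 above the median of all genes. Of the 8 enzymes held in the multi-synthetase complex, only Mars was called and the median was 0.22. The structural classes of the family, which differ in the fold of the catalytic site, had 2 of 10 class I genes called at a median of 0.39 and 3 of 10 class II genes at a median of 0.31.

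The mitochondrial calls rest on few molecules. Pars2 (chr4:106651069-106655282, plus strand, ENSMUSG00000043572) stood at 1.66 CPM (1.39 to 1.97) in the E13.5 control, 1.40 (1.14 to 1.70) in the E14.5 control, 1.26 (1.03 to 1.53) in the G1KO-labelled and 0.821 (0.638 to 1.04) in the DCKO-labelled library, a DCKO-labelled to control log2 ratio of −0.77 (−1.24 to −0.31). Its level was highest in the E13.5 control and lowest in the DCKO-labelled library. With TMM 1 mitochondrial gene was called lower and with DESeq2 factors 0.

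Iars2, for isoleucine in mitochondria, stood at 20.96, 20.1, 19.8 and 15.3 CPM, a log2 ratio of −0.39 (−0.50 to −0.28), with the DCKO-labelled library below the other 3. Nars2 stood at 5.47, 3.87, 3.94 and 3.60 CPM, a log2 ratio of −0.11 (−0.35 to 0.13). Lars2 stood at 129.6, 284, 335 and 253 CPM, a log2 ratio of −0.16 (−0.19 to −0.14). Of the rest, 12 mitochondrial genes ran from −0.29 for Hars2, for histidine, to 0.30 (0.09 to 0.52) for Mars2, for methionine. The Hars and Hars2 genes overlap on opposite strands at their starts, and whether the counts can assign molecules from the overlap was not tested.

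Where an amino acid has a cytosolic and a mitochondrial gene, the 2 were also set side by side, a listing made after the values were seen. In 16 of 16 pairs the cytosolic gene had the higher DCKO-labelled to control log2 ratio, with Eprs standing for both glutamate and proline and Fars2 not paired. A change of scaling moves both genes of a pair alike and leaves their difference as it is. Differences ran from 0.13 between Rars and Rars2 to 1.09 between Eprs and Pars2. Iars exceeded Iars2 by 0.96 and Aars exceeded Aars2 by 0.91.

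Other genes of the pathway were read in the same comparison, where 4.45% of 16262 tested genes were called higher and 13.6% lower. The 3 scaffold proteins of the multi-synthetase complex were not called, with Aimp2 at 0.26, Aimp1 at 0.12 and Eef1e1 at 0.08. None of the 5 elongation factors, which carry charged tRNA to the ribosome, recycle the factor that carries it or move the ribosome along, was called, with ratios from 0.12 for Eef1a1 through 0.17 for Eef1b2, 0.26 for Eef1d and 0.26 for Eef2 to 0.32 for Eef1g. The 74 tested of 76 cytosolic ribosomal protein genes had 0 called and a median of 0.21, with Rpl35a at 0.35, Rps18 at 0.34 and Rpl30 at 0.34. The ratios in this paragraph are not relative to the median gene, which lay below 0. The elongation factors and the median cytosolic ribosomal protein gene thus lay further above the median gene than above 0, as the median cytosolic synthetase did. In mitochondria, 0 of 78 ribosomal protein genes were called and the median was −0.04, with Mrpl33 at −0.34, Mrpl44 at −0.32, Mrpl36 at −0.30, Mrps18b at 0.29 and Mrps31 at −0.25. The 8 mitochondrial helpers, which complete glutaminyl-tRNA, formylate the initiator or drive elongation, had 0 called and a median of −0.15, with Qrsl1 at −0.31, Gfm1 at −0.26, Gfm2 at −0.25, Gatc at −0.15 and Tsfm at −0.14.

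Genes of the stress pathways were read beside the synthetases. Of 30 ATF4 targets that are not synthetases, 22 were called higher and 0 lower, with a median of 1.02, where 4.45% of all tested genes were called higher and 13.6% lower. The 8 that did not pass the fold included Atf3 at −0.09, Slc38a2 at −0.07 and Cebpb at 0.00, named after their values were seen. Asns, which makes asparagine, stood at 39.8 CPM in the E13.5 control, 41.5 in the E14.5 control, 102 in the G1KO-labelled and 198 in the DCKO-labelled library, a log2 ratio of 2.26. The others with the largest ratios were Stc2, a secreted glycoprotein, at 3.14, Nupr1, a stress-induced chromatin protein, at 2.79, Slc6a9, a glycine transporter, at 2.47, and Cth, which makes cysteine, at 2.37. Of 12 genes of the unfolded protein response of the endoplasmic reticulum, 10 were called higher at a median of 0.86, led by Sdf2l1 at 2.07, Creld2 at 1.77, Herpud1 at 1.44, Manf at 1.28 and Hyou1 at 1.05.

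Neither Atf4 itself nor any of the eIF2 alpha kinases was called higher, though Atf4 and Eif2ak3 lay above 0. Atf4 mRNA stood at 206, 304, 277 and 334 CPM across the 4 libraries, a DCKO-labelled to control log2 ratio of 0.13. Eif2ak2, a kinase activated by double-stranded RNA, was called lower at −0.65, and was not with TMM or DESeq2 factors. Eif2ak4, the sensor of uncharged tRNA, stood at −0.40, Eif2ak3, the sensor of unfolded protein, at 0.31 and Eif2ak1, the kinase sensitive to heme, at −0.17.

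The G1KO-labelled library, in which 1 Glut3 allele is not floxed, was compared with the same E14.5 control, so the ratios of both comparisons share its counts. Sars and Gars were higher, and the other cytosolic genes lay closer to the median gene. Of 20 cytosolic genes 2 were called higher and 0 lower, where 4.53% of 16385 tested genes were called higher and 5% lower, and with CPM averaged over cells 1 was called higher. Sars had a log2 ratio of 0.78 (0.73 to 0.83) and Gars of 0.63 (0.58 to 0.68), beside 0.97 and 0.95 in the DCKO-labelled library. Aars stood at 0.52 (0.43 to 0.62), Mars at 0.44 (0.35 to 0.54), Iars at 0.39, Yars at 0.33, Nars at 0.25 and Lars at 0.24.

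Over all 20 cytosolic genes the median was 0.09, against −0.08 over all genes, and 15 of 20 lay above 0, with Farsa the lowest at −0.13. The 13 ATF4-listed genes had a median of 0.25 and the other 7 of −0.04. No mitochondrial gene of the 17 was called, at a median of −0.05, with Lars2 the highest at 0.24. Scaling with TMM turned the mitochondrial median to 0.02 and moved the higher share of calls over all genes from 47.5% to 60.2%, and to 61.5% with DESeq2. Among ATF4 targets outside the family, 13 of 30 were called higher at a median of 0.46, and of the unfolded protein response genes 1 of 12 at a median of 0.18.

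The DCKO-labelled library was also set directly against the G1KO-labelled library. No cytosolic gene of the 20 passed the fold, where 3.17% of 16388 tested genes were called higher and 9.9% lower. Their median was 0.19, 0.28 above that of all genes, and 18 of 20 lay above 0. Yars was the highest at 0.47 (0.40 to 0.54), followed by Cars at 0.39 (0.31 to 0.47) and Mars at 0.36 (0.28 to 0.44). Sars, which showed the largest cytosolic ratio of the G1KO-labelled library over the control, differed little between the mutant-labelled libraries, at 0.19 (0.15 to 0.23).

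Of the 17 mitochondrial genes Pars2 was called lower in that comparison, at −0.61 (−1.08 to −0.16), and was not with TMM or DESeq2 factors. The mitochondrial median was −0.08, 0.02 above that of all genes, and turned to 0.01 with TMM. Mars2 was the highest at 0.49 (0.28 to 0.70), whereas Lars2 stood at −0.40 (−0.43 to −0.38). Beside them, 16 of 30 ATF4 targets were called higher at a median of 0.66, and 9 of 12 unfolded protein response genes at a median of 0.74. The share of calls that were higher over all genes moved from 24.2% to 35.5% with TMM and 35.0% with DESeq2.

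Between E13.5 and E14.5 in the controls the cytosolic mRNAs were nearly level. None of the 20 passed the fold, where 10.5% of 16517 tested genes were called higher at E14.5 and 17.5% lower. Their median was 0.01, 0.15 above that of all genes, and 10 of 20 lay above 0, from −0.39 (−0.50 to −0.28) for Wars to 0.55 (0.45 to 0.65) for Cars. With TMM or DESeq2 factors, which moved the median of all genes up from −0.14 to 0.00 and −0.01, 1 was called higher, and the share of calls that were higher over all genes moved from 37.5% to 51.4% and 50.2%. The share of chondrocyte-like cells also differed between these libraries, 24.1% against 62.5% of mesenchyme, and its part in the ratios was not tested.

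Among mitochondrial genes Lars2 (chr9:123366927-123462666, plus strand, ENSMUSG00000035202) was called higher at E14.5, with a log2 ratio of 1.13 (1.10 to 1.17). The other 16 had ratios from −0.53 for Aars2, for alanine in mitochondria, to −0.01 for Mars2, with 0 above 0 and a median of −0.29, 0.14 below the median gene. Lars2 made up 39.6% of the mitochondrial sum in the E13.5 control, 63.2% in the E14.5 control, 67.8% in the G1KO-labelled and 62.6% in the DCKO-labelled library. Gm42418, a gene model that lies over ribosomal RNA sequence, stood at 3834, 5569.7, 6343 and 4889 CPM and placed the libraries in the same order as Lars2 did. AY036118, another such model, stood at 673, 1112, 993 and 773 CPM. Lars2 values are given as uncertain for that reason, as whether ribosomal RNA contributes tags to Lars2 was not tested.

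Cell classes of the mesenchyme were compared next, to ask where the higher cytosolic levels lay. In chondrocyte-like cells the cytosolic sum stood at 1239.9 CPM in the E13.5 control, 1275 in the E14.5 control, 1586 in the G1KO-labelled and 1759.7 in the DCKO-labelled library. In the other limb mesenchyme as a whole it stood at 1079, 1058, 1036 and 1051 CPM, though classes within it differed. Within the chondrocyte-like class, cells that also expressed at least 2 of 3 prehypertrophic markers had the highest sums of the mesenchymal classes in each library, at 1372, 1594, 2252 and 2415 CPM. Interzone-like cells stood at 1068, 1110.4, 1126 and 1321 CPM and tendon-like cells at 1129, 1151, 1097 and 1223 CPM, highest in the DCKO-labelled library, whereas fibroblast-like cells stood at 1093, 1017, 994 and 944 CPM, lowest there.

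In chondrocyte-like cells 7 of 20 cytosolic genes were called higher and 0 lower in the DCKO-labelled library over the control, where 6.01% of 15296 tested genes were called higher. They were Sars at 1.15 (1.10 to 1.21), Gars at 1.03 (0.98 to 1.08), Aars at 0.96, Mars at 0.92, Yars at 0.89, Lars at 0.69 and Iars at 0.66. Sars in these cells stood at 65.1, 71.1, 139.9 and 158 CPM across the 4 libraries, and Gars at 69.3, 83.0, 147 and 169 CPM. The cytosolic median was 0.38, with 0.66 for the ATF4-listed genes and 0.03 for the other 7. Of the 17 mitochondrial genes 2 were called lower, among them Pars2 at −0.67 (−1.23 to −0.13), where 13% of tested genes were. In the G1KO-labelled library 4 of the 20 cytosolic genes were called higher over the control in these cells, Sars, Gars, Aars and Mars, at 0.98, 0.82, 0.70 and 0.59, and 0 lower, where 5.43% of tested genes were called higher and 6.08% lower. In the other limb mesenchyme 0 of 20 were called in the DCKO-labelled library over the control, at a median of 0.06, where 4.04% were called higher and 8.89% lower.

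In prehypertrophic-like cells (680, 278, 450 and 623 cells) 9 of 20 cytosolic genes were called higher and 0 lower, where 8.04% of 11556 tested genes were called higher and 20% lower. Sars stood at 69.8, 72.6, 201 and 222 CPM, a DCKO-labelled to control log2 ratio of 1.61 (1.45 to 1.77). Gars stood at 76.0, 131, 254 and 269.9 CPM, a log2 ratio of 1.04 (0.92 to 1.17), and differed between the controls as well. Lars stood at 71.8, 70.5, 126 and 145 CPM, a log2 ratio of 1.03 (0.87 to 1.21). In these cells the G1KO-labelled library lay close to the DCKO-labelled one. There 7 cytosolic genes were called higher over the control, where 7.55% of tested genes were called higher and 8.37% lower, among them Sars at 1.47 (1.30 to 1.63), and the direct comparison of both mutant-labelled libraries called 0 of 20, with a median of 0.06, where 3.39% were called higher and 11.7% lower.

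Interzone-like cells, which expressed Gdf5 and at least 4 of 5 interzone markers, numbered 1816, 885, 918 and 328. In the DCKO-labelled library 2 cytosolic genes were called higher over the control and 0 lower, where 5.26% of 12024 tested genes were called higher and 13.8% lower. These 2, named after their values were seen, were Mars at 0.79 (0.42 to 1.15) and Cars at 0.78 (0.38 to 1.17), and the cytosolic median was 0.29. Sars stood at 68.8, 82.7, 106 and 112 CPM in these cells, higher in both mutant-labelled libraries than in the controls and under the fold. In the G1KO-labelled library 0 of 20 were called, with a cytosolic median of 0.02, where 3.16% of tested genes were called higher and 9.5% lower.

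Fibroblast-like cells, with at least 4 of 6 fibroblast markers, numbered 2063, 1212, 2014 and 1534. None of the 20 cytosolic and none of the 17 mitochondrial genes passed the fold there in the DCKO-labelled library over the control, where 3.49% of 12996 tested genes were called higher and 6.89% lower. The medians were −0.08 for both compartments, against −0.07 over all genes. Sars stood at 75.5, 77.1, 97.0 and 78.8 CPM, highest in the G1KO-labelled library, and Gars at 58.2, 52.5, 49.97 and 45.8 CPM, lowest in the DCKO-labelled library. Of the ATF4 targets outside the family 3 of 29 tested were called higher there.

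**Figure D2:**
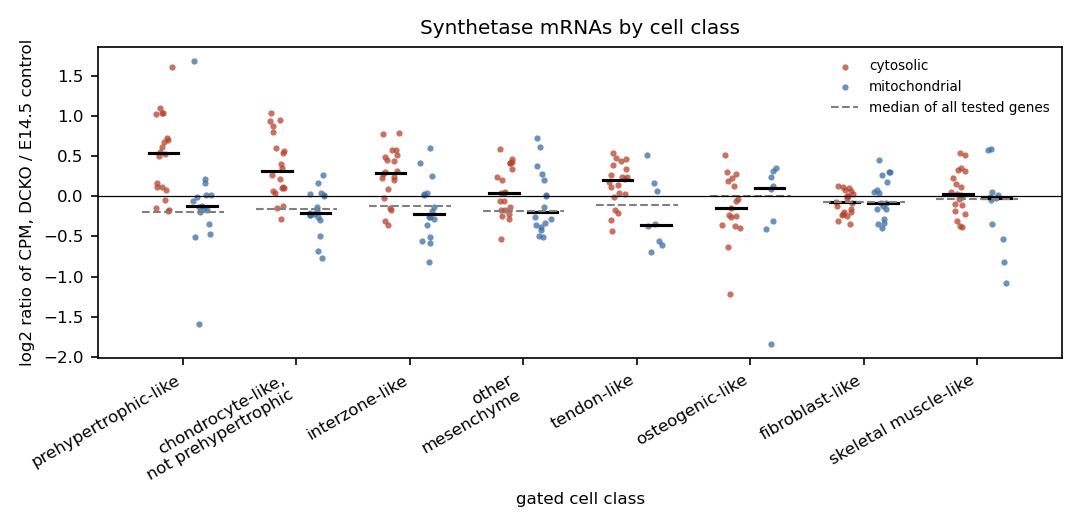
Each point is the log2 ratio of CPM of 1 gene in the DCKO-labelled library over the E14.5 control within a gated cell class, with cytosolic genes in red, mitochondrial genes in blue, list medians as black bars and the median of all tested genes as dashed grey lines. The cytosolic median is 0.54 in prehypertrophic-like, −0.08 in fibroblast-like and 0.02 in skeletal muscle-like cells.

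The smaller mesenchymal classes were read with the same rule. In tendon-like cells (179 control and 89 DCKO-labelled cells) 0 of 20 cytosolic genes were called at a median of 0.20, where 5.16% of tested genes were called higher and 15.6% lower. In mesenchyme with none of these identities (771 and 1205 cells) Yars was called higher at 0.59, where 4.54% of tested genes were called higher and 15.7% lower, and the cytosolic median was 0.04. In osteogenic-like cells (73 and 90 cells) 0 of 17 tested cytosolic genes were called higher and 2 lower, Mars at −1.21 (−2.65 to −0.03) and Farsa at −0.63 (−1.60 to 0.27), where 9.99% of tested genes were called higher and 8.88% lower. Yars, Mars and Farsa are named here after their values were seen.

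Skeletal muscle-like cells lie outside the Prx1Cre lineage and numbered 670, 217, 322 and 78. Their cytosolic sums were nearly level, at 1126, 1224, 1247 and 1252 CPM, and their mitochondrial sums without Lars2 were 220.1, 197, 197 and 187 CPM. No cytosolic gene of the 20 was called in the DCKO-labelled library over the control, where 5.79% of 8905 tested genes were called higher and 12.2% lower. The cytosolic median was 0.02, with ratios from −0.38 to 0.53 and 11 of 20 above 0. Sars stood at 65.1, 73.8 (64.6 to 83.9), 89.3 and 71.9 (55.1 to 92.2) CPM, and Gars at 66.7, 67.8, 77.1 and 78.9 CPM, so the intervals of the DCKO-labelled library and the control overlapped.

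With 78 cells in the DCKO-labelled library, muscle ratios near the fold were not resolved, as the interval for Aars, −0.18 to 1.18 around 0.53, shows. Of 11 mitochondrial genes tested there, Cars2 was called higher at 0.59 (−0.55 to 1.56), and Aars2 at −0.81 (−3.39 to 0.73) and Iars2 at −1.08 (−2.26 to −0.19) lower, the first and second with intervals that span 0. Cars2 and Aars2 are named after their values were seen. Slc2a1 in these cells was 26.7, 24.1, 57.4 and 73.1 CPM across the 4 libraries. Their summed chondrocyte markers at E14.5 were 943, 1424 and 847 CPM, led by Col2a1, and the part of such RNA from other cells was not tested.

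The classes were then compared inside each library, chondrocyte-like cells against all other limb mesenchyme, which takes both sums from the same embryos and the same run. Depth per cell still differed between classes, and its part was not tested. In the DCKO-labelled library median UMIs were 15076 in prehypertrophic-like and 7555 in the remaining chondrocyte-like cells. They were 8043 in tendon-like, 7035 in interzone-like and 5103.5 in fibroblast-like cells, and 3793 in mesenchyme with none of these identities. In the E13.5 control 0 of 20 cytosolic genes were called higher in chondrocyte-like cells, where 8.61% of tested genes were. In the E14.5 control Cars alone among the 20 was called, where 9.11% were. In the G1KO-labelled library 8 were called, where 9.62% were, and in the DCKO-labelled library 11, where 8.92% were. None of the 20 was called lower in any of the 4 libraries, where 21.9%, 27.1%, 28.6% and 30.6% of tested genes were.

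Medians of the cytosolic ratios were 0.16, 0.17, 0.49 and 0.63 in the same order, and relative to the median of all genes 0.29, 0.36, 0.71 and 0.88. With CPM scaling the 13 ATF4-listed genes held all of these calls, whereas with TMM some of the other 7 passed the fold as well in both mutant-labelled libraries. The 13 had medians of 0.08, 0.12, 0.68 and 0.83, and the other 7 had medians of 0.19, 0.17, 0.18 and 0.23. Other translation genes were also above the median of all genes inside each library. Relative to it, cytosolic ribosomal protein genes had medians of 0.19, 0.38, 0.44 and 0.41. Elongation factors had medians of 0.25, 0.43, 0.49 and 0.52. In the E14.5 control both families thus lay as far above it as the cytosolic synthetases, at 0.36, or further. Gars ran from 69.3 against 57.9 CPM in the E13.5 control (log2 ratio 0.26) to 83.0 against 58.5 in the E14.5 control (0.50), 147 against 59.9 in the G1KO-labelled (1.29) and 169 against 62.0 in the DCKO-labelled library (1.45). Its level outside the chondrocyte-like class thus stayed between 57.9 and 62.0 CPM. Sars stood at −0.15 (−0.24 to −0.06) and −0.13 (−0.21 to −0.05) in the controls, beside medians of all genes of −0.13 and −0.20, and the second turned above 0 with TMM. In the mutant-labelled libraries it stood at 0.52 (0.45 to 0.58) and 0.83 (0.76 to 0.91). Outside the chondrocyte-like class Sars stood at 72.2, 77.7, 97.8 and 88.7 CPM across the 4 libraries.

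In each control 16 of the 20 cytosolic genes lay above 0, among them Cars and Eprs. Cars, a gene singled out after its values were seen, had ratios of 0.42, 0.91, 1.19 and 1.08, and Eprs of 0.44, 0.56, 0.83 and 1.04. Mitochondrial genes had no call in the first 3 libraries, and in the DCKO-labelled library 3 were called lower, among them Hars2 at −0.73 (−0.92 to −0.53) and Lars2 at −0.67 (−0.71 to −0.63), where 30.6% of tested genes were. Of these Hars2 was likewise named after its values were seen. The mitochondrial medians were 0.09, −0.10, −0.04 and −0.13, of which the last turned to 0.19 with TMM, where 0 of the 3 calls were left, as did the second to 0.14 and the third to 0.21.

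Scaling also moved the values inside libraries. TMM moved the median of all genes up, from −0.13, −0.20, −0.21 and −0.25 to −0.02, 0.04, 0.04 and 0.06, and gave cytosolic counts of 0, 4, 13 and 15. It also moved the share of calls that were higher over all genes from 25.1% to 41.5% in the E14.5 control, from 25.2% to 43.6% in the G1KO-labelled and from 22.6% to 46.3% in the DCKO-labelled library. Beside the synthetases, with CPM scaling, ATF4 targets outside the family were called higher in chondrocyte-like cells in 7, 9, 20 and 23 of 30 cases and lower in 6, 4, 3 and 3. Of all tested genes, 8.61%, 9.11%, 9.62% and 8.92% were called higher there and 21.9%, 27.1%, 28.6% and 30.6% lower.

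**Figure D3:**
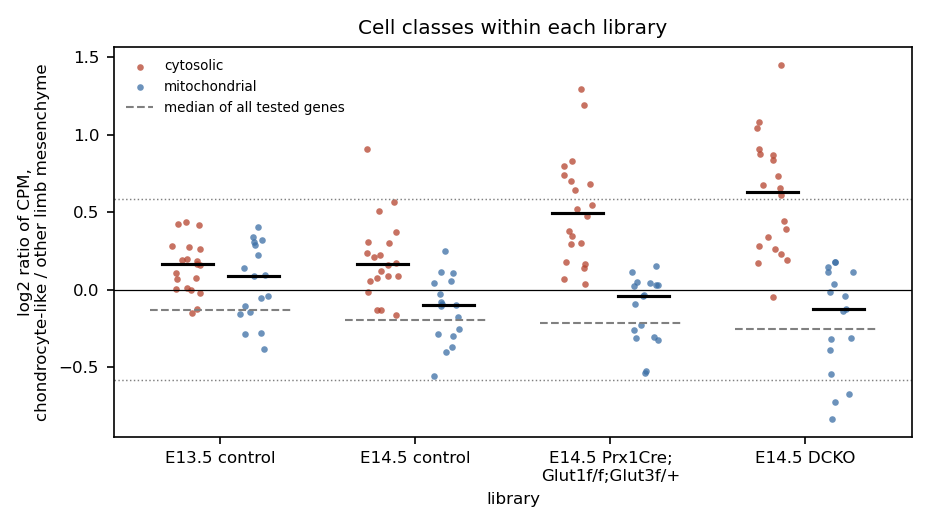
Each point is the log2 ratio of CPM of 1 gene in chondrocyte-like cells over the other limb mesenchyme of the same library, with cytosolic genes in red, mitochondrial genes in blue, list medians as black bars, the median of all tested genes as dashed grey lines and 1.5-fold as dotted lines. The cytosolic median is 0.16 and 0.17 in the controls, 0.49 in the G1KO-labelled and 0.63 in the DCKO-labelled library, and the mitochondrial median of the latter, −0.13, turns to 0.19 with TMM scaling.

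Promoter sequence was read for a feature the symbol rule did not use. Windows of 300 bases, 250 before and 50 after the start of the gene, were taken from RefSeq on build GRCm38.p6, and 27 of the 37 genes had an entry, with 28 windows. Cars, Hars, Hars2, Lars, Nars, Pars2, Rars, Vars and Wars were among those that had none. Both strands were searched for TGATGNAA, the core of the CCAAT-enhancer binding protein and ATF response element, and for TGATGCAA, which is contained in it. TGATGNAA was present in 5 of 13 cytosolic genes (38.5%) and 0 of 14 mitochondrial genes, against 4.51% of the 27025 genes with a window. TGATGCAA was present in 4 of the 13, against 1.03% of all genes, and in 6 of 27 ATF4 targets outside the family (22.2%), of which 8 (29.6%) held TGATGNAA. A match is a run of letters and not evidence of binding.

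A stretch is given for each of the 5 genes with a match, though not for every match counted above. Of these genes Tars had the lowest ratio of the DCKO-labelled library over the control, at 0.39. Capitals mark the match, which reads on the strand of the gene in Yars and as its reverse complement in the others. Yars lies at chr4:129189895-129189924 (plus strand), Gars at chr6:55037960-55037989 (plus), Aars at chr8:111033840-111033869 (plus), Iars at chr13:49682126-49682155 (plus) and Tars at chr15:11399655-11399684 (minus).
Yars: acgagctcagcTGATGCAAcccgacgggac
Gars: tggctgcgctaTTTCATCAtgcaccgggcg
Aars: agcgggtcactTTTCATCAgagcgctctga
Iars: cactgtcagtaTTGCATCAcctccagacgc
Tars: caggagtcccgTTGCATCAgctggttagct
Sars and Mars, with ratios of 0.97 and 0.81, had windows without either run of letters.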

How the data were processed

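The values used are the UMI counts per gene and cell that the authors deposited. The file headers name Cell Ranger 6.1.2, the submitters' processing notes name Seurat 3 and build mm10, and the study methods name the 10x Single Cell 3' v3.1 kit. Kept cells were gated on fixed marker lists, with thresholds chosen after marker detection was seen: limb mesenchyme 2 of 6, chondrocyte 6 of 8, prehypertrophic 2 of 3, interzone 4 of 5, fibroblast 4 of 6 and skeletal muscle 3 of 8. UMIs were summed per class and library (at least 50 cells) and scaled to CPM. Log2 ratios had a prior count of 0.5. Tools were Python 3.11.15 with numpy 2.4.6, scipy 1.17.1, pandas 2.3.3, matplotlib 3.10.9 and scanpy 1.11.5, and R 4.3.3 with edgeR 4.0.16 and DESeq2 1.42.0. Positions came from GENCODE M21. The ratio and interval code was tested on simulated data.

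The members and lists were chosen with earlier results of these data known. Named were the 8 cytosolic genes with the largest rise and every gene past the fold downward in the DCKO-labelled library over the E14.5 control, the 3 mitochondrial genes with the largest absolute log2 ratio there, the 3 most and 3 least abundant genes in the E14.5 control, Lars2, and the 5 with the largest absolute ratio in each companion list; a few of the genes so chosen are not reported here. Alternatives were TMM and DESeq2 scaling, scaling without marker genes, mean CPM over cells, count minima of 1 and 100 UMIs, a stricter cell filter, all kept cells, chondrocyte-like cells, lower and higher folds, and lists without Lars2. Scrublet, the doublet caller in scanpy, marked 2 of 9305 cells in the E14.5 control and 0 in the other libraries, so it had not worked, and no doublets were removed.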

Additional observations from a re-analysis of the deposited data

Results flagged for a closer look

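For 4 cytosolic genes the ratio of the DCKO-labelled library over the E14.5 control lay on opposite sides of 0 in chondrocyte-like and in fibroblast-like cells, with neither counting interval reaching 0. Lars stood at 0.69 in chondrocyte-like and −0.23 in fibroblast-like cells, a gap of 0.92 on the log2 scale. Iars stood at 0.66 and −0.24, a gap of 0.90, and its fibroblast-like interval ended at −0.008. These ratios are not relative to the median gene. The fibroblast-like interval of Lars ended at −0.057. Relative to the median gene of fibroblast-like cells, which lay below 0, the intervals of both Lars and Iars would reach 0. Tars stood at 0.46 and −0.31, a gap of 0.77. Eprs stood at 0.34 and −0.19, a gap of 0.53. The difference was not tested, since each class comes from 1 library per group.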

How the results depend on the processing

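The counts of called genes in this section take higher and lower calls together. They are given without the share of all tested genes called at each setting, and are not read against it. Over all alternatives, 86 of the counts of called genes stayed within 1.5 times their value in the report and 31 did not. Of the list medians 101 moved by less than 0.1, 13 moved further and 3 that had been at least 0.1 from 0 changed sign, and no single member that was called changed sign. In limb mesenchyme, TMM gave 9 cytosolic and 1 mitochondrial call for the DCKO-labelled library over the control, with a mitochondrial median of 0.038, 0 mitochondrial calls for DCKO-labelled over G1KO-labelled, and 1 cytosolic call between the ages. DESeq2 factors gave 9, 0, a mitochondrial median of 0.048, 0 and 1. Inside libraries TMM gave 4 cytosolic calls in the E14.5 control and 13 in the G1KO-labelled library, and in the DCKO-labelled library 0 mitochondrial calls with a median of 0.19. Mean CPM per cell gave 1 mitochondrial call for DCKO-labelled over control, 1 cytosolic call for G1KO-labelled over control and 0 mitochondrial calls between the mutant-labelled libraries. Chondrocyte-like cells alone gave 4 cytosolic calls for G1KO-labelled over control, 0 mitochondrial between the mutant-labelled libraries and 3 mitochondrial between the ages, and leaving out Lars2 gave 0 for the last. At a lower fold, a log2 ratio of 0.32, the cytosolic counts were 10 for DCKO-labelled over control, 6 for G1KO-labelled over control, 3 between the mutant-labelled libraries, 4 between the ages and 6 in skeletal muscle-like cells, and the mitochondrial ones 1 for G1KO-labelled over control, 5 between the mutant-labelled libraries and 7 between the ages. At a fold of 2 there were 0 cytosolic and 0 mitochondrial calls for DCKO-labelled over control, 0 cytosolic for G1KO-labelled over control and 0 mitochondrial between the mutant-labelled libraries. The planned removal of cells marked by the doublet caller was not run because the caller had not worked. In its place, an alternative chosen after seeing the data left out the 1066, 828, 973 and 976 cells of highest doublet score, and gave 1 cytosolic call in skeletal muscle-like cells. A lower fold can only add calls and a higher one only remove them; for the other settings the cause was not tested. Across alternatives Sars in the DCKO-labelled library over the control ranged from 0.84 to 1.15 and Pars2 from −0.93 to −0.58. Depth limits the scarce mitochondrial genes and the small classes. No paired analysis was possible because each group has 1 library and the labels carry no replicate numbers.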

Other observations

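Chondrocyte-like cells were also split by whether they held a UMI of Car9, a carbonic anhydrase known to respond to low oxygen, and the share of such UMIs that came from background RNA was not tested. In the G1KO-labelled library 1068 cells with and 4386 cells without such a UMI had median depths of 11180.5 and 7878.5 UMIs. Sars stood at 166 CPM with and 131 without, a log2 ratio of 0.33 (0.26 to 0.41), and Gars at 167 and 139.7, a ratio of 0.26 (0.19 to 0.33). The median over the cytosolic genes was 0.07, against −0.09 over all genes. In the DCKO-labelled library, with 828 and 5986 cells at median depths of 10627.5 and 7670 UMIs, Sars differed by 0.08 (0.00 to 0.15) and Gars by 0.01 (−0.07 to 0.08). In the E14.5 control, with 331 and 4860 cells, Sars differed by 0.00 (−0.19 to 0.18) and Gars by −0.13 (−0.32 to 0.04). In the E13.5 control, with 69 and 2400 cells, Sars differed by −0.30 (−0.86 to 0.17) and the cytosolic median was −0.10, against 0.01 over all genes. Cells with a Car9 UMI were deeper in each library, and the part of depth was not tested.

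Erythroid-like cells had the lowest cytosolic sum of the classes with at least 50 cells in the E13.5 and E14.5 controls, at 420.4 CPM in 151 cells and 246 CPM in 93 cells. Their mitochondrial genes other than Lars2 summed to 60.9 and 37.1 CPM. Lars2 did not share this low level, at 269 CPM in the E14.5 control, where it made up 87.9% of the mitochondrial sum. In the G1KO-labelled library 67 such cells held 663 CPM of cytosolic and 106 CPM of mitochondrial synthetase mRNA other than Lars2, and whether the makeup of the class differed between libraries was not tested. In the DCKO-labelled library the class fell below 50 cells and was not compared.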
